A study of Homo sapiens with 8 samples.

Results

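MKI67, CCND1 and E2F1, 3 genes whose products mark or drive cell division, were followed through the deposited list of N1-methyladenosine (m1A) positions. They were chosen by name, and all their listed positions are described: 9 in CCND1, 2 in E2F1 and 8 in MKI67, together 19 of 9962 positions and 3 of 4945 genes. The positions came from human neuroblastoma cells given a control transfection or small interfering RNA against TRMT6, with 2 replicates of each. RNA selected for poly(A) tails was fragmented, and libraries were made from fragments pulled down with an m1A antibody and from input kept aside, which gives 4 groups of 2: control m1A, control input, siTRMT6 m1A and siTRMT6 input. The counts were taken as m1A reads because the table lists m1A sites, although the count columns name only the condition and a number. Input values were not used here. The libraries are therefore called control 1, control 2, siTRMT6 1 and siTRMT6 2. The labels do not say whether replicates were separate cultures, so the p-values here reflect the spread of these libraries alone, and that spread can be technical. Sample titles call the cells SK-N-BE, while the cell line and source fields say SK-N-AS.

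Cyclin D1, the product of CCND1, binds the kinases CDK4 and CDK6 in G1 phase, and the complex phosphorylates the retinoblastoma protein RB. RB then lets go of E2F transcription factors such as E2F1, which switch on genes for DNA replication. MKI67 encodes Ki-67, a large protein that coats mitotic chromosomes and is low or absent in resting cells, and it is the usual pathology marker of proliferation in neuroblastoma and other tumours. m1A is a methyl group on the pairing face of adenine. TRMT6 is the partner subunit of the methyltransferase TRMT61A, which places m1A in the T loop of tRNA and in similar stems of other RNAs.

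The reference letters at a listed base could be read for 1 of the 19 positions, the E2F1 position at 33686379 of chromosome 20, because it lies 7 bases into the RefSeq gene and so inside the RefSeq promoter entry (build GRCh38.p14). Entries matched 2 of the 3 genes, E2F1 and MKI67. The sequence is shown because it tells which letter the table lists. It covers chr20:33686369-33686389, minus strand, written 5′ to 3′ along the transcript with the listed base in capitals:
E2F1 position 26: ggccgggactTtgcaggcagc
The listed letter is T, which is U in the E2F1 RNA and not an adenosine. The nearest A of the transcript strand lies 3 bases upstream, and the next one downstream lies 4 bases away. Across all genes, 367 listed positions fell inside a promoter entry of their own gene. All 63 of them on plus-strand genes were A, and all 304 on minus-strand genes were T along the transcript, which is A on the plus strand of the genome. Bases around them were mixed, with 20.5% A on the plus strand and 15.6% T on the minus strand over the surrounding 20 bases of each 21-base window. E2F1 and MKI67 lie on the minus strand, with 10 of the 19 positions, and CCND1 lies on the plus strand with 9. The letters at the 8 MKI67 positions, the other E2F1 position and the 9 CCND1 positions were not read here. The T-loop core GTTCGA or GTTCAA, searched on both strands, was not in the E2F1 window, and 2 of 339 windows of that length (0.59%) held it.

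Listed reads in the libraries ranged from 8655 in control 1 and 13812 in siTRMT6 2 to 40771 in siTRMT6 1 and 46007 in control 2. These sums leave out unlisted bases, so the full sequencing depth is unknown. Where 1 library alone supported a position, it had at least 5 reads if a control and 6 if siTRMT6. Whether a listed 0 means no reads is not stated. TRMT6 had no listed position, and its partner TRMT61A had 4. A listed m1A position would not give the RNA level, so silencing was not checked. Noradrenergic neuroblastoma markers with listed reads were MYCN, PHOX2A, GATA3, DBH, HAND2 and TH, with sums of 123 to 251 per library. MYCN, the oncogene that is amplified in SK-N-BE(2) and not in SK-N-AS cells, had 48 to 59 reads in each of the 4 libraries. Of 6 mesenchymal markers, VIM alone had a position, with 0 to 12 reads per library. The line was not identified here.

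Each of the 19 positions had reads in 1 library, as did 98.6% of all positions, so no position of the 3 genes had a second library to compare it with. The authors' deposited table gave them log2 fold changes from -7.14 to 6.43 with adjusted p of at most 0.00274, and called 10 higher and 9 lower in siTRMT6. It called 49.6% of all positions higher and 50.4% lower, and the largest p-value it listed was 0.0478, so nothing is read from the count of members. Of the positions, 12 lay in coding sequence (63.2%, against 61.7% of all gene positions), 6 in 3' UTRs (31.6%, against 21.1%) and 1 in a 5' UTR (5.26%, against 11.3%). 

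**Figure D1:**
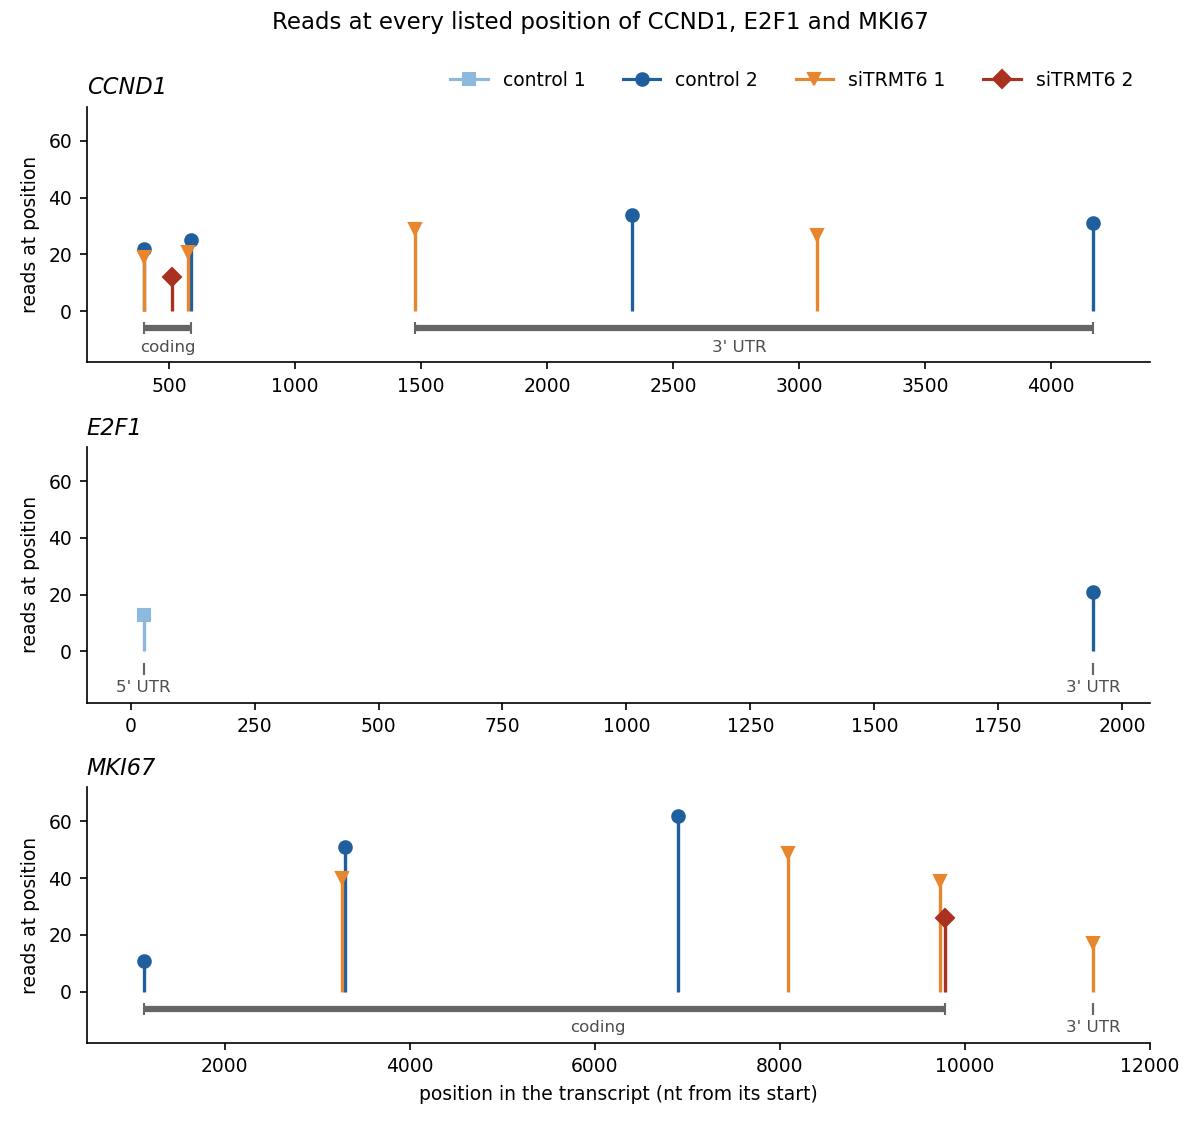
Reads (vertical axis) at each listed position of CCND1, E2F1 and MKI67 against its place in the transcript in nt (horizontal axis), 1 symbol per position and library. In CCND1 and MKI67, positions of control 2 and of siTRMT6 1 alternate or sit side by side, with up to 62 reads, and E2F1 has 1 position in each control library and none in siTRMT6.

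CCND1, the G1 cyclin, held 5 positions in coding sequence and 4 in its 3' UTR. Summed over them, control 1 had 0 reads, control 2 had 112, siTRMT6 1 had 96 and siTRMT6 2 had 12. The high libraries were thus 1 of each condition, and the ranges of the conditions overlapped. Per 10000 listed reads of each library, the sums were 0 in control 1, 24.3 in control 2, 23.5 in siTRMT6 1 and 8.69 in siTRMT6 2. The exact Poisson intervals (95%) of control 2 (20.04 to 29.3) and siTRMT6 1 (19.1 to 28.8) overlapped, while that of siTRMT6 2 (4.49 to 15.2) lay below both. The interval of control 1 reached 4.26, below the intervals of the other libraries. These intervals, and the Poisson and binomial ones below, cover counting error only, since reads without molecular identifiers are not independent molecules. They also take a listed 0 as no reads, although the smallest count listed in control 1 alone was 5.

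Pooled by condition and scaled by listed reads, CCND1 had a log2 of siTRMT6 over control of -0.050 (exact binomial interval -0.45 to 0.34). The edgeR test over the 4 libraries gave a log2 of 0.15 ± 2.38 (SE, n = 2 libraries a condition; adjusted p = 0.9998), and its sign turned with equal library sizes (-0.052). Without control 2, which held all control reads of the gene, no control reads were left, and a floor of 3 counts in their place gave a log2 of 2.51. Without siTRMT6 1 the pooled log2 was -1.24. The difference between conditions was thus within the spread between replicates.

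The coding positions of CCND1 sat in close pairs. At positions 399 and 402 of the transcript (69641485 and 69641488 of chromosome 11, hg38), 3 nt apart, control 2 had 22 reads at the first base and siTRMT6 1 had 19 at the second. At 576 and 585 (69643181 and 69643190), siTRMT6 1 had 21 reads and control 2 had 25, with siTRMT6 2 contributing 12 reads at 510 (69643115). Reads from 3 or more libraries within 1 joined region, as in this trio, occurred in 3.35% of all regions. The authors' deposited table therefore called opposite directions 3 and 9 nt apart. Positions 402 and 510 lie 1627 bases apart in the genome but 108 nt apart in the spliced transcript, because 1519 bases of intron are removed between them. Joined along the transcript, all 5 coding positions formed 1 stretch from 399 to 585 with 0, 47, 40 and 12 reads in control 1, control 2, siTRMT6 1 and siTRMT6 2. Its pooled log2 was 0.15 (interval -0.45 to 0.75), and the edgeR value was 0.44 ± 2.69 (SE, n = 2 libraries a condition; adjusted p = 0.9999). Joined in the genome, the pair from 399 to 402 had a pooled log2 of -0.21 (interval -1.18 to 0.74) and the trio from 510 to 585 had 0.40 (-0.39 to 1.21).

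In the 3' UTR of CCND1, which holds much of the regulatory sequence of this short-lived mRNA, the 4 positions lay 734 to 1094 nt apart with no intron between them. Along the transcript, siTRMT6 1 had 29 reads at 1474 (69651641), control 2 had 34 at 2337 (69652504), siTRMT6 1 had 27 at 3071 (69653238) and control 2 had 31 at 4165 (69654332). The 2 libraries alternated. The last base lies 142 bases before the end of the RefSeq gene. The bases at 3071 and 4165 were also listed for ORAOV1, a gene on the other strand, so these 58 reads cannot be given to 1 gene without knowing the strand of the reads. The first coding pair was listed on both CCND1 transcripts of the table, and the other 7 positions on 1 of them.

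**Figure D2:**
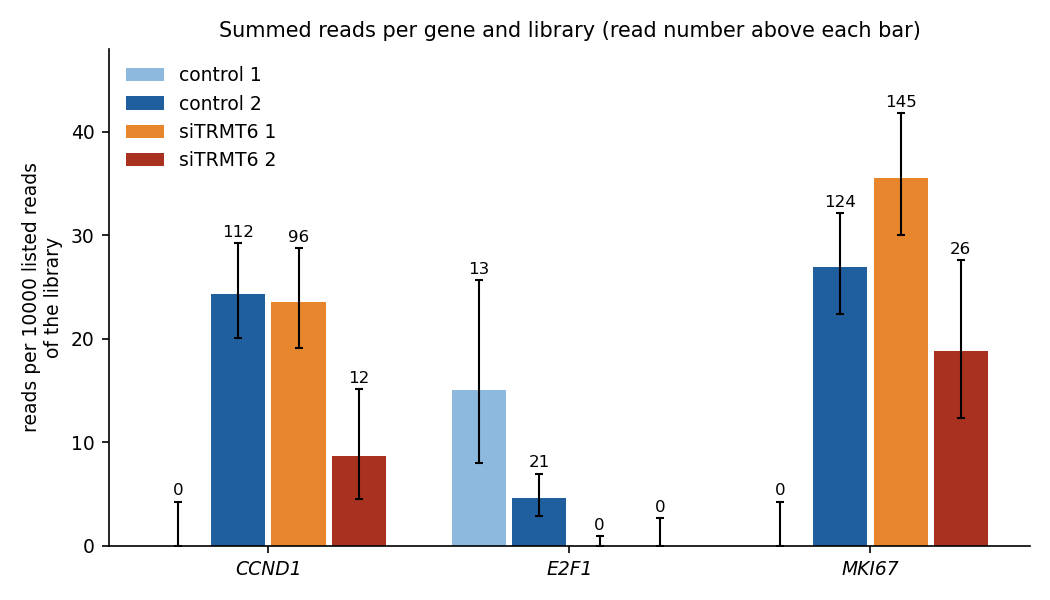
Summed reads of CCND1, E2F1 and MKI67 per 10000 listed reads (vertical axis) in each library, with exact Poisson intervals and the read number above each bar. Control 1 has 0 reads of CCND1 and MKI67, and both siTRMT6 libraries have 0 reads of E2F1.

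E2F1, the transcription factor released by RB, had 2 positions, both with control reads. Control 1 had 13 reads at position 26 in the 5' UTR (33686379 of chromosome 20), and control 2 had 21 reads at 1941 in the 3' UTR (33676245). Both siTRMT6 libraries had 0 reads at listed positions of the gene, so the conditions did not overlap in the summed reads. Of the 1188 genes with 2 listed positions, 18.9% had control reads only, and 6.82% had them in both control libraries, as did 2.47% of all listed genes. The sums were 15.02 per 10000 listed reads in control 1 (Poisson interval 7.998 to 25.7) and 4.56 in control 2 (2.83 to 6.98). The intervals of the controls did not overlap, and their reads lay at different ends of the mRNA. Nothing is read from this about the replicates, since 98.6% of all positions had reads in 1 library. A position listed in 1 control alone had at least 5 reads, which is a larger share of the smaller control 1.

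With a floor of 3 counts in place of the 0 siTRMT6 reads, E2F1 was 11.3-fold lower in siTRMT6, a log2 of -3.50. The exact binomial interval reached a log2 of -3.12, so the fold at the floor is not a lower limit. Like every fold at the floor, these values hold only if a listed 0 means no reads. The edgeR test called 0.0% of the 975 genes it tested at an adjusted p below 0.05, E2F1 included (adjusted p = 0.386; 0.418 to 1 over the alternatives). Its unadjusted edgeR p was 0.0362, and 12.9% of the tested genes had one below 0.05. DESeq2 called 1 gene, and gave E2F1 an adjusted p of 0.878. Scaled by the 14 bases that had reads in both conditions, the floor fold corresponded to a log2 of -2.24 in place of -3.50. With siTRMT6 1 left out, the log2 at the floor was -1.52, since the remaining siTRMT6 library is small. A position with fewer reads than the smallest listed counts would not appear, so less m1A, less E2F1 RNA and a count just under the listing limit cannot be told apart.

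The 5' UTR position of E2F1 lay near the transcript start, as did 24.0% of the 1376 listed 5' UTR positions (within 50 nt of the start of a transcript that lists them). It was listed at 26 on both E2F1 transcripts, so its distance from the RefSeq start, 7 bases counting the start as 1, differs from that on the transcripts of the table. The 3' UTR position lies 768 bases before the end of the RefSeq gene.

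MKI67, the proliferation marker, held 7 positions in coding sequence and 1 in its 3' UTR. Control 1 had 0 reads over them, control 2 had 124, siTRMT6 1 had 145 and siTRMT6 2 had 26. The 2 siTRMT6 libraries lay on either side of control 2 per 10000 listed reads: 27.0 in control 2 (Poisson interval 22.4 to 32.1), 35.6 in siTRMT6 1 (30.01 to 41.8) and 18.8 in siTRMT6 2 (12.3 to 27.6). Control 1 had 0, with an interval up to 4.26. The conditions overlapped, and the controls differed from each other more than control 2 did from either siTRMT6 library. Of the 96 genes with 8 or more positions, 42.7% likewise had no reads in control 1.

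The pooled log2 of MKI67 was 0.47 (exact binomial interval 0.12 to 0.81), so 58.0% of its reads came from siTRMT6 against 49.96% of all listed reads. The edgeR test, which takes the spread between libraries into account, gave 0.71 ± 2.32 (SE, n = 2 libraries a condition; adjusted p = 0.9998). Without control 2, which held all control reads, the pooled value was 3.18, set by the floor of 3 counts. Without siTRMT6 1 it was -0.27. It was 1.73 when scaled by the bases shared between conditions. The binomial interval therefore covers far less than the spread between libraries.

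The coding positions of MKI67 spread over most of its very long message. The 4 positions from 3267 to 8092 of the transcript lay in 1 run of 4826 nt with no intron between them. In this run siTRMT6 1 had 40 reads at 3267 (128108949 of chromosome 10, hg38), control 2 had 51 at 3300 (128108916) and 62 at 6904 (128105312), and siTRMT6 1 had 49 at 8092 (128104124). The base with 62 reads had more reads than 99.78% of all listed positions. The pair at 3267 and 3300, 33 nt apart, was thus called in opposite directions in the authors' deposited table. Summed, it had a pooled log2 of -0.35 (interval -0.98 to 0.28) and an edgeR log2 of -0.25 ± 3.79 (SE, n = 2 libraries a condition; adjusted p = 0.9995).

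Downstream of an intron, siTRMT6 1 had 39 reads at 9736 (128101603) and siTRMT6 2 had 26 at 9790 (128101549), 54 nt away. This was the only stretch of the 3 genes with reads in both siTRMT6 libraries and none in a control, a pattern that 3.7% of all 8488 regions showed. With the floor of 3 counts in place of the 0 control reads, it was 21.7-fold higher in siTRMT6, a log2 of 4.44. The exact binomial interval reached down to a log2 of 4.10, so this fold is not a lower limit either. Without control 2, which held most listed control reads, the fold at the floor was 3.44, and without siTRMT6 1 it was 34.3. The edgeR test of regions called 0.0% of 525 regions. This stretch had an adjusted edgeR p of 0.0875 (0.0912 to 1 over the alternatives). Its unadjusted p was 0.021, and 25.0% of tested regions had one below 0.05. DESeq2 called 1 region, and gave this stretch an adjusted p of 0.513. With positions joined within 50 nt, its bases stayed separate and neither was tested.

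The remaining MKI67 positions were the outermost. Control 2 had 11 reads at 1123 (128115661), listed on 2 of the 3 MKI67 transcripts of the table, and siTRMT6 1 had 17 at 11385 in the 3' UTR (128097952). Every other MKI67 position was listed on all 3 transcripts. MKI67 is known to make a long and a short form that differ by a coding exon. At the 7 bases that both forms of numbering share, position numbers on 1 listed transcript were 1261 lower than those used here.

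Over the 3 genes, 6 neighbouring pairs lay within 200 nt along the transcript, from 3 to 108 nt apart. None of the pairs came from 1 library, 3 joined a control and a siTRMT6 library, and 3 joined both siTRMT6 libraries. Of the 14 regions formed within 200 nt of the genome, 3 had reads in both conditions, against 17.3% of all regions. The 14 included 4 that passed the filter on low counts and none of these was called by edgeR at an adjusted p below 0.05 (1 at an unadjusted p below 0.05). None of the 19 single positions passed that filter, under which 64.7% of 34 positions were called. Unfiltered, each of the 19 positions had an adjusted edgeR p of 0.519, and 0 had an unadjusted p below 0.05.

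**Figure D3:**
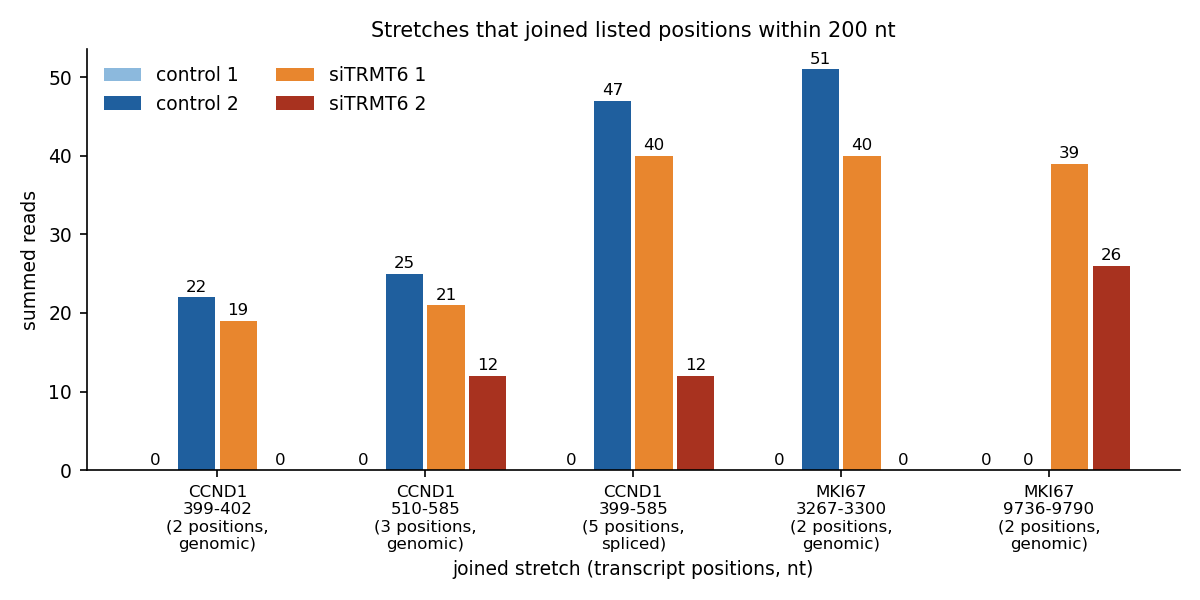
Summed reads (vertical axis) in each library for the stretches of CCND1 and MKI67 that joined more than 1 listed position within 200 nt, in the genome or along the spliced transcript. Control 2 and siTRMT6 1 are close in 4 of the 5 stretches shown (51 and 40 reads in the MKI67 pair). The spliced CCND1 stretch repeats the reads of the genomic CCND1 pair and trio, so these 4 are not separate. The MKI67 stretch from 9736 to 9790 has 39 and 26 siTRMT6 reads and 0 control reads.

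Genes with the most similar sums over the 4 libraries were sought by cosine likeness, among genes with at least as many reads and positions. CCND1 was closest to PRRC2B, with 0, 130, 130 and 12 reads in control 1, control 2, siTRMT6 1 and siTRMT6 2 (cosine 0.9969), of 7 candidates, followed by SRRM2 (0.9623) and DYNC1H1 (0.9401). For MKI67, with 2 candidates, SRRM2 had 0.9666 and GSE1 0.9233, and both had reads in control 1 (53 and 60). E2F1 was closest to HIF1A, the hypoxia-inducible factor subunit, with 12 and 22 control reads and 0 in both siTRMT6 libraries (0.9985), of 924 candidates. HMGB1P5 (13 and 24) and RP11-603J24.9 (16 and 20) came next. These values describe 4 libraries that share their depth with every gene.

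Around CCND1 and E2F1, the cyclin D, RB and E2F switch had few listed positions: 10 of 28 genes, with 9 positions higher and 12 lower in the authors' deposited table. CDK6, a kinase partner of cyclin D1, had 24 reads in control 2, 15 in siTRMT6 1 and 6 in siTRMT6 2. E2F4, a repressive member of the E2F family, had 11, 24 and 6 in the same libraries. CDKN1A, the inhibitor p21, had 27 in control 2 and 7 in siTRMT6 2, and TFDP1, the dimer partner of E2F proteins, had 16 in control 2 and 8 in siTRMT6 1. RB1 itself and its relative RBL2 had 6 reads each in control 2, CDKN2A (encoding p16) had 13 there, and CDK4 and CCNE1 had no position. No gene of this list had reads in control 1, nor did 83.9% of all listed genes, and 5 of the 10 had control reads only, against 33.9% of all listed genes. Of the 3 genes tested by edgeR none was called, against 0.0% of all tested genes. In this list and the next 2, edgeR gave 0 genes an unadjusted p below 0.05, and DESeq2 called 0.

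Proliferation markers and mitotic genes, the company of MKI67, were listed for 14 of 20 genes, with 25 positions higher and 29 lower. CENPF, a kinetochore protein, had 12 positions with 72 reads in control 2, 40 in siTRMT6 1 and 16 in siTRMT6 2. MYBL2, a transcription factor of the cell cycle, had 8, 55, 28 and 22 reads in control 1, control 2, siTRMT6 1 and siTRMT6 2. TPX2, a spindle protein, had 10, 45, 34 and 8, and PLK1, a mitotic kinase, had 20, 31, 20 and 8. FOXM1, which drives mitotic genes, had 17 in control 2 and 21 in siTRMT6 2. The edgeR test covered 5 of these genes and called none.

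The E2F targets of S phase were listed for 12 of 20 genes, with 21 positions higher and 20 lower. MCM4, a subunit of the replicative helicase, had 20, 16, 34 and 0 reads in control 1, control 2, siTRMT6 1 and siTRMT6 2. MCM2, another subunit, had 55 in control 2 and 9 in siTRMT6 1, and MCM5 had 28, 23 and 12 in control 2, siTRMT6 1 and siTRMT6 2. UHRF1, which maintains DNA methylation after replication, had 39, 6 and 13 in those libraries, and RRM2, a subunit of ribonucleotide reductase, had 26 in control 2 and 20 in siTRMT6 1. None of the 5 genes tested by edgeR was called. The median pooled log2, with genes at 0 in a condition set at the floor, was -0.998 in the cyclin D, RB and E2F list. It was -0.62 in the mitotic list and -0.26 in the S phase list, beside -0.22 over all listed genes. In the first list, 5 genes had control reads only and 1 had siTRMT6 reads only, so their values were set by the floor. RB1 and RBL2, with 6 control reads each, had the median value itself. So did TFDP1, with 16 control and 8 siTRMT6 reads, whose value was not set by the floor. The medians were not tested. Of the 3 lists, control 2 held 120 of the 120, 276 of the 325 and 230 of the 262 control reads.

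**Figure D4:**
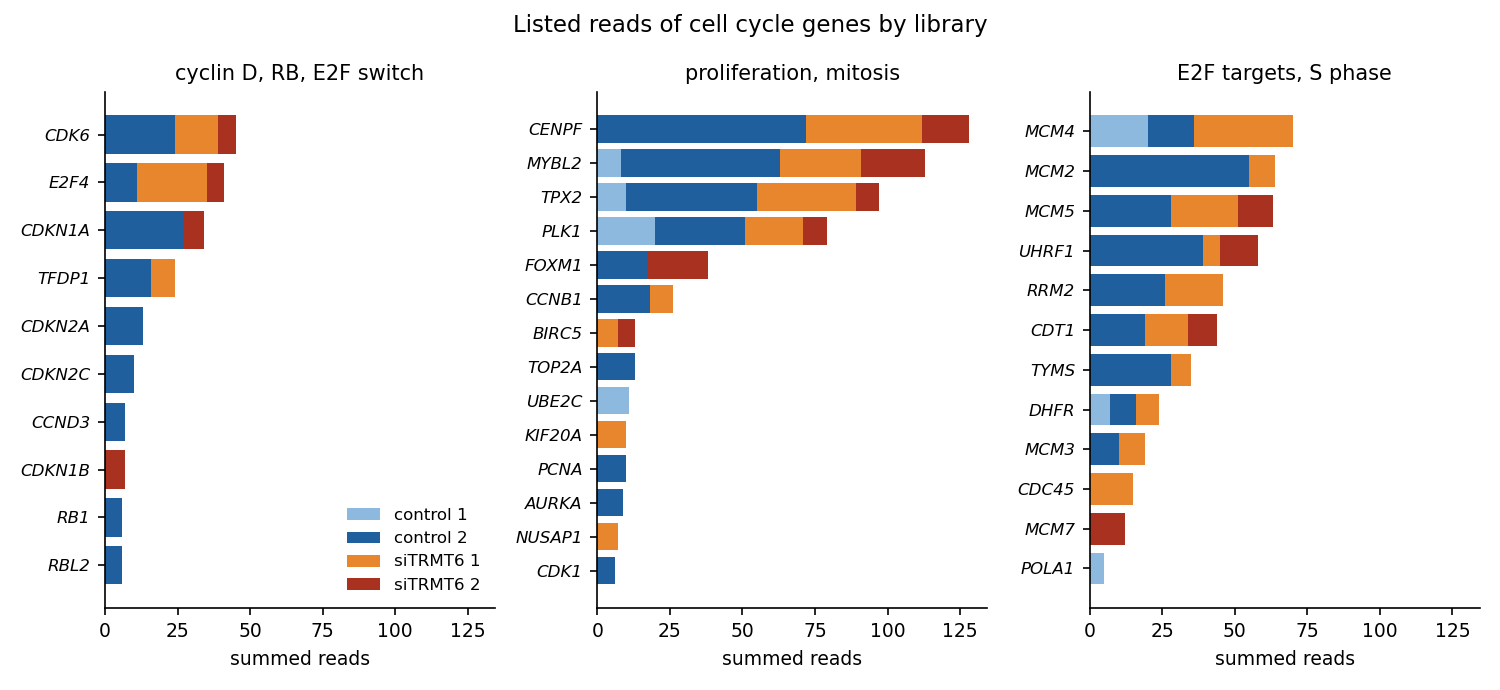
Summed listed reads (horizontal axis) of each gene with a position in the 3 cell cycle lists, stacked by library. CENPF has the most reads, and control 2 supplies every control read in the left list.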

How the data were processed

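Read counts per position were deposited by the authors in 1 table of 25539 lines, once per transcript. Per the file headers, it also gave the authors' log2 fold change, p-value and adjusted p-value. The submitters' processing notes name FastQC (0.11.3), STAR and the build hg38. How positions were called, counted and tested is not given in the sources used here. Sites were listed from 0 (10 of 10 mitochondrial positions matched RefSeq starts) and are given from 1. Counts were tested over the whole table with edgeR 4.0.16 in R 4.3.3 (TMM, filterByExpr with a minimum count of 10, quasi-likelihood test, Benjamini-Hochberg at 0.05), per position, per region (positions of a gene joined within 200 nt) and per gene. Standard errors came from the F statistic. DESeq2 1.42.0 was an alternative. The edgeR and joining steps were tested on simulated data. Simulated replicates of a gene shared 1 mean, scaled by library size, so the sparse overlap of the real libraries was not built in. The simulation thus checks the code and not the calls made here. Genes were named where they had the most reads in a list (up to 5) or passed a test, and a few others (RB1, RBL2, CDK4 and CCNE1) after their values were seen. The members and lists were chosen with earlier results of these data known. Alternatives were scaling, filtering, joining distance (50 or 500 nt), a replicate block and leaving out each library; joining along the transcript and a crossed block were added after seeing the data. No count column was left out.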

Additional observations from a re-analysis of the deposited data

How the results depend on the processing

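Of 22 position calls (13 higher and 9 lower), 14 were called again when scaled by listed reads alone (13 higher and 1 lower), and 0 with DESeq2 (14 unadjusted), without the filter, or with any 1 library left out (0 to 0, with at most 5 unadjusted). With equal library sizes there were 29 (10 higher and 19 lower), 19 of them among the 22. None of these concerns the 19 positions. DESeq2 called 1 region and 1 gene (28 and 47 unadjusted), and edgeR 0 of each; none was a member. With the replicate block edgeR called 0 positions, 0 regions and 0 genes, and with crossed numbers 0, 0 and 1, no member among them (unadjusted 0, 1 and 1 with the block, and 0, 1 and 3 with crossed numbers). Same-numbered libraries deviated with r = -0.26 over 525 regions and -0.11 over 975 genes. Most positions had reads in 1 library and the libraries differ in listed reads, so these values cannot tell whether the numbers pair the libraries. The block turned the edgeR log2 of the CCND1 pair (399 to 402) to 0.049 and that of the MKI67 pair (3267 to 3300) to 0.017, and moved MKI67 to 3.10, CCND1 to 2.35 and the CCND1 trio (510 to 585) to 2.99 (3.08, 2.34 and 2.92 with crossed numbers), none of them called.

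Scaled by bases listed in both conditions, the pooled log2 was 1.73 for MKI67, 1.21 for CCND1 and -2.24 for E2F1; with 0 replaced by 0.5, E2F1 had -6.09. With each library left out in turn, the pooled log2 ran from -0.27 to 3.18 for MKI67, from -1.24 to 2.51 for CCND1 and from -4.77 to -1.52 for E2F1. The upper ends for MKI67 and CCND1, and the whole range for E2F1, were set by the floor of 3 counts. The edgeR log2 ran from -0.46 to 9.17 for MKI67 and from -1.43 to 8.47 for CCND1 (-0.052 with equal library sizes), from -0.22 to 7.08 for the CCND1 trio and from -7.39 to 7.09 for the MKI67 pair. The CCND1 pair had -1.10 without control 1 and 0.85 without siTRMT6 2, and did not pass the filter without either library that held its reads. Apart from this pair, the ends of these ranges came from leaving out control 2 or siTRMT6 1, the libraries with the most listed reads, except the lower end of the trio (without control 1). Windows of 41 bases held the T-loop core in 1 of 308 positions and those of 21 bases in 2 of 339; fewer positions have a full longer window. The cause of the other changes was not tested. Listed reads are few in control 1 and siTRMT6 2, so a 0 there sets a weaker limit than in the other libraries.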

Other observations

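Positions inside a promoter entry of their own gene were unevenly spread over the strands. Of the gene positions on minus-strand genes, 10.8% (304 of 2817) lay within such an entry, and of those on plus-strand genes 0.812% (63 of 7757). Minus-strand genes held 26.6% of all gene positions. No explanation was tested.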
